A study of Homo sapiens with 4 samples.

Results

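Endoplasmic reticulum (ER) chaperones and unfolded protein response genes were compared in LNCaP cells, an androgen-responsive human prostate cancer line, 24 hours after transfection with a MED1 expression vector or an empty vector. There were 2 samples with MED1 and 2 with the empty vector, each measured on 1 Affymetrix array. Both groups were grown in serum-containing RPMI-1640 and both went through lipofection, so the empty vector samples carried plasmid too. Transfection was transient, the share of cells that took up a vector is not given in the sources used here, and the arrays read the whole culture. MED1 is a subunit of Mediator, the complex that connects transcription factors to RNA polymerase II. One free-text label of the empty vector group speaks of MED1, whereas title, source name and transfection label all give empty vector, and these were followed.

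The genes were 32 named ER chaperones, disulfide isomerases, ER degradation genes and targets of the transcription factors ATF6 and XBP1. Their probe sets were those for which the platform annotation gave 1 such gene and no other. This found 48 probe sets of 28 genes among 22215 non-control probe sets. DNAJB11, SYVN1, SEC61G and PDIA5 had no probe set named for them alone and are not analysed here. A further 3 probe sets, which name HSP90B1 or PDIA5 together with a microRNA gene, were left out. Of the 48 probe sets, 47 were tested. The other, a dim SEL1L probe set, lay under the filter on low signals (a signal of 31.01) and read 15.5 and 24.5 with MED1 and 24.9 and 24.8 with the empty vector.

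The ER folds and glycosylates proteins that enter the secretory route, a heavy load in prostate luminal cells, which secrete kallikreins. When unfolded proteins accumulate, sensors in its membrane signal: ATF6 is cut to release a transcription factor, the nuclease IRE1 (encoded by ERN1) splices XBP1 RNA into the form that encodes an active factor, and the kinase PERK (EIF2AK3) slows translation while favouring ATF4. ATF6 and spliced XBP1 raise chaperones and ER degradation genes, and ATF4 raises DDIT3 and amino acid genes. These arrays read total XBP1 RNA and tell nothing of its splicing or of the cleavage of ATF6.

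The median signal over all probe sets was 77.4 to 79.0 on the MED1 arrays and 80.2 to 83.2 on the empty vector arrays. One of the 2 MED1 probe sets was higher with the MED1 vector, at 559 and 807 against 292 and 315 with the empty vector (log2 fold change 1.11 ± 0.16 SE, adjusted p = 0.032), and the other was not (0.09 ± 0.10, adjusted p = 0.83). All 8 annotated luminal prostate markers lay above the filter, with summed signals of 22039 and 23369 with MED1 and 22867 and 25108 with the empty vector, and KLK2 averaged 7759 ± 248 with MED1 and 8390 ± 386 with the empty vector (SD, n = 2 each). The leukocyte markers, 3 of 5 annotated, lay below it, and the 2 neuroendocrine markers did too, while 1 of 3 endothelial, 2 of 4 fibroblast and 1 of 2 annotated basal markers lay above it. Summed leukocyte signals were 50.5 and 35.5 with MED1 and 28.2 and 32.2 with the empty vector. Those of endothelial markers were 140 and 177 against 153 and 153, of fibroblast markers 149 and 251 against 148 and 205, of basal markers 106 and 90.8 against 72.9 and 150, and of neuroendocrine markers 9.27 and 11.8 against 11.3 and 41.2. Their part in the differences of ER genes was not tested.

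ATF6 and XBP1 are known to act through short promoter elements. In the ER stress element, CCAAT stands 9 bases before CCACG. In its shorter second form, ATTGG stands 1 base before CCACG. Windows from 250 bases before to 50 after each RefSeq start (GRCh38.p14) were searched on both strands, and 30 of the 32 genes had at least 1 window. The HSPA5 and HERPUD1 stretches are shown because those genes had the lowest p-values among the ER genes, with differences of opposite sign. Each is the 250 bases before the start, at chr9:125241344-125241593 on the minus strand for HSPA5 and chr16:56931892-56932141 on the plus strand for HERPUD1, with the letters of the matched element in capitals.
HSPA5: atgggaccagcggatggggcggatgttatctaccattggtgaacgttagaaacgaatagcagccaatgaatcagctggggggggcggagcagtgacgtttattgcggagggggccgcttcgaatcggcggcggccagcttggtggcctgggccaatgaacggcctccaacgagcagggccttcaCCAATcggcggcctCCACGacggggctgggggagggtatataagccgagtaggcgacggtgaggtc
HERPUD1: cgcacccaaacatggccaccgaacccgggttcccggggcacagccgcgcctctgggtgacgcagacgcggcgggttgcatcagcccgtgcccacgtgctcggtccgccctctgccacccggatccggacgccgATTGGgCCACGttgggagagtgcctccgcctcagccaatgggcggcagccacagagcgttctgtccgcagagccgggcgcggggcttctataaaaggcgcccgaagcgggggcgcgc

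Exact matches to the ER stress element were found in 8 of 37 windows (21.6%), belonging to 6 genes, where 27 of all 35116 windows (0.0769%) held one. Overlapping CANX windows hold the same site and are counted separately there. By gene, 6 of 30 held a match, where 25 of all 27305 genes did. The second form was found in 3 of the 37 windows (8.11%) and in 19 of all windows (0.0541%). The XBP1-type element TGACGTGG was found in 2 of the 37 (5.41%), those of HYOU1 and VCP, and in 256 of all (0.729%). The HYOU1 one overlaps a match to the second form of the ER stress element. These elements were described from promoters of ER chaperone genes, so their presence here is background to the array values and not a result of them. The other matches are shown to compare their spacers, each on the strand where CCAAT or ATTGG comes first, with those bases and CCACG in capitals.
HSP90B1, chr12:103930216-103930234: CCAATcggaaggagCCACG
HSP90B1, chr12:103930321-103930339: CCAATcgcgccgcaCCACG
CALR, chr19:12938384-12938402: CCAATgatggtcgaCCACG
CANX, chr5:179698778-179698796: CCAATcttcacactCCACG
PDIA6, chr2:10812853-10812871: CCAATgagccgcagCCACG
XBP1, chr22:28800603-28800621: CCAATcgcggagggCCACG
HYOU1, chr11:119057380-119057390: ATTGGaCCACG
HYOU1, chr11:119057274-119057284: ATTGGaCCACG
SDF2L1, chr22:21642114-21642124: ATTGGtCCACG

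None of the 47 ER probe sets passed the test (limma, Benjamini-Hochberg adjusted p under 0.05 over 13329 tested probe sets), where 39 of all tested probe sets did, or 0.293%. At an unadjusted p of 0.05, 5 ER probe sets were higher with MED1 and 2 lower, or 10.6% and 4.26%, against 4% and 5.2% of all tested probe sets. The MED1 pair lay wholly above the empty vector pair for 17 of the 47 (36.2%) and wholly below it for 3 (6.38%), against 17.2% and 22.6% of all tested probe sets. Some of the 17 are probe sets of the same gene and are not independent. Taking for each gene the probe set of highest mean among those tested, 19 of 28 log2 fold changes were positive (67.9%) and the median was 0.05, against 45.5% and -0.02 over 7957 genes. At an unadjusted p of 0.05 (limma), 2 of these 28 genes were higher with MED1 and 2 lower. Over all tested genes, 4.1% were higher and 5.69% lower. Centring each array on its median moved the 19 to 22. It added the same amount to every log2 fold change, and the median over all tested probe sets went from -0.0156 to 0.0363. The positive share over all genes was not counted after centring.

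Differences were small. The log2 fold change, of MED1 over empty vector on log2(signal + 16), was under 0.35 in size for 44 of the 47 probe sets (93.6%), as for 89.4% of all tested ones. The exceptions were HERPUD1 (-0.55), the DNAJC3 probe set (-0.45) and 1 ATF6 probe set (0.94). The last 2 are dim. The MED1 pair of DNAJC3 and both pairs of ATF6 differed within the pair by more, in signal, than the group means did. The arrays read RNA of the whole culture, so fewer cells expressing a gene and less RNA per cell cannot be told apart. The 95% intervals given below are those of limma for a single probe set, without adjustment for the number tested, and an adjusted p that misses the threshold does not show that a gene was unaffected. No label says that the duplicates were separate cultures, and the p-values therefore rest on a spread that may be technical.

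**Figure D1:**
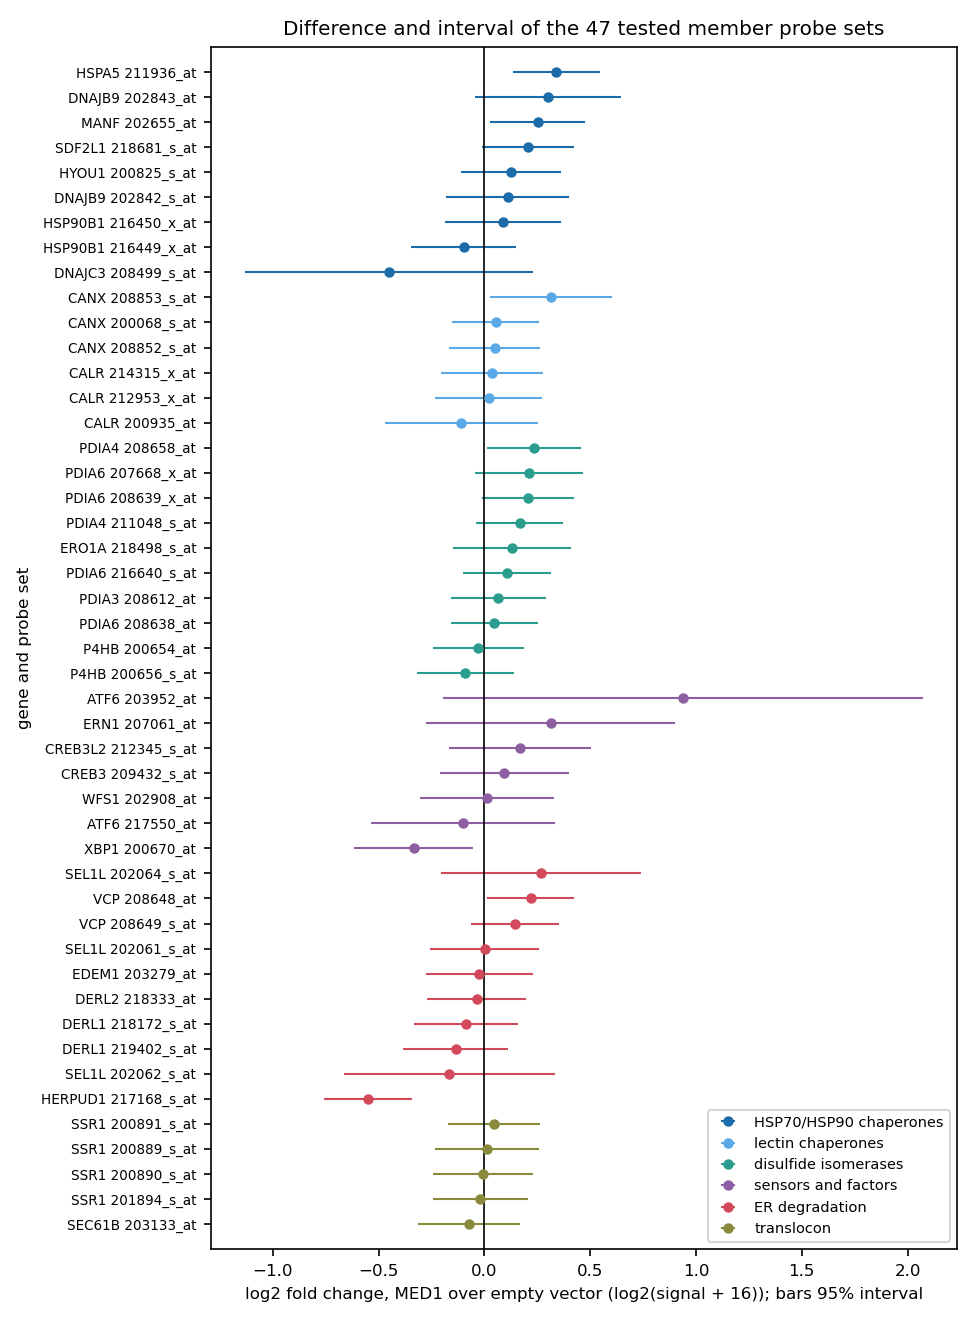
Log2 fold change of MED1 over empty vector (horizontal axis, on log2(signal + 16)) with its 95% interval for each of the 47 tested ER probe sets, arranged and coloured by function. HERPUD1 lies lowest at -0.55, HSPA5 leads the chaperones at 0.34, and the widest interval is that of an ATF6 probe set.

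In the HSP70 and HSP90 chaperone group, the MED1 pair lay wholly above the empty vector pair on 5 of 9 probe sets and wholly below it on 0, where 17.2% and 22.6% of all tested probe sets did so. HSPA5 encodes BiP, the ER HSP70 that binds unfolded proteins and holds the sensors inactive. Its probe set read 5319 and 5182 with MED1 and 4136 and 4157 with the empty vector. The groups were apart by far more than their replicates differed, with a log2 fold change of 0.34 ± 0.09 as its standard error, that is 1.27-fold with an interval of 1.10 to 1.46. It did not pass over all probe sets (adjusted p = 0.277).

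MANF, a secreted ER stress protein that binds BiP, read 2636 and 2974 with MED1 and 2283 and 2420 with the empty vector. That is a log2 fold change of 0.25 ± 0.10 (adjusted p = 0.477), or 1.19-fold with an interval of 1.02 to 1.39. SDF2L1, which works with ER HSP40 proteins, read 944 and 940 with MED1 and 792 and 837 with the empty vector (0.21 ± 0.10, adjusted p = 0.576). For both genes the arrays of the groups did not overlap. HYOU1, the ER HSP110 that exchanges the nucleotide of BiP, read 803 and 904 with MED1 and 799 and 762 with the empty vector (0.12 ± 0.10), apart by little.

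DNAJB9 encodes ERdj4, an HSP40 induced by spliced XBP1. One probe set read 268 and 219 with MED1 and 186 and 201 with the empty vector (0.30 ± 0.15, adjusted p = 0.59), and the one of higher signal overlapped between groups (0.11 ± 0.13). HSP90B1, the ER HSP90 known as GRP94, overlapped between groups on both probe sets, which are of the x_at type. The first read 1729 and 1746 with MED1 and 2050 and 1689 with the empty vector (-0.10 ± 0.11), where empty vector replicate 1 stood highest. The second read 390 and 429 with MED1 and 365 and 402 with the empty vector (0.09 ± 0.12). DNAJC3, an HSP40 known as p58IPK that also restrains PERK, read 49.1 and 116 with MED1 and 103 and 119 with the empty vector. MED1 replicate 1 alone was low there, and without it the log2 fold change was 0.06 rather than -0.45. The group median over 7 genes was 0.12. As deviations from the empty vector mean, it stood at 0.16 and 0.20 on the single MED1 arrays. The empty vector arrays gave -0.00358 and 0.00358, equal and opposite by construction and no independent measure of spread. The median was 0.17 without empty vector replicate 1 and 0.09 without empty vector replicate 2.

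**Figure D2:**
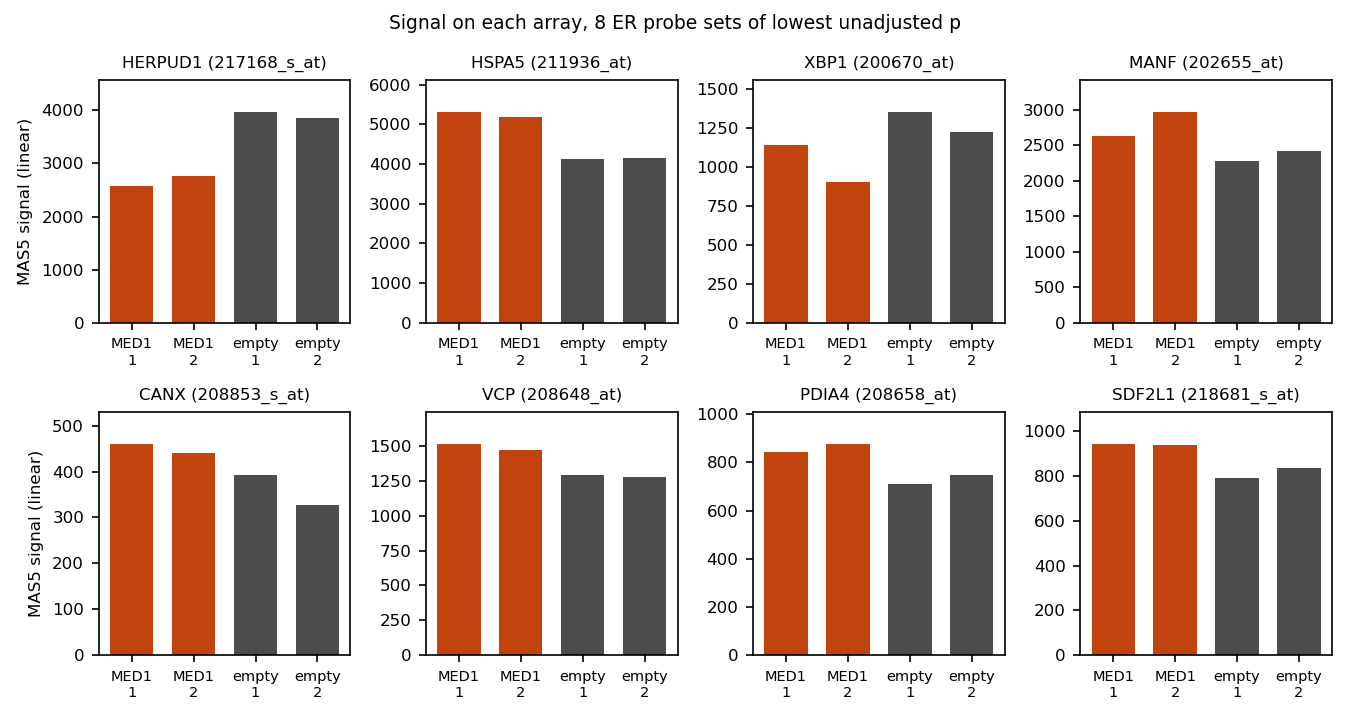
MAS5 signal on a linear axis from 0 for the 8 ER probe sets of lowest unadjusted p, with 1 bar for each array, MED1 in orange and empty vector in grey. HERPUD1 and XBP1 are lower on both MED1 arrays, and HSPA5, MANF, CANX, VCP, PDIA4 and SDF2L1 are higher on both; none of the 8 passed the test.

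The lectin chaperones CALR (calreticulin) and CANX (calnexin) hold newly made glycoproteins for folding. CANX read 4070 and 4120 with MED1 and 3876 and 4020 with the empty vector on its probe set of highest signal (0.05 ± 0.09), and a second gave 0.05 ± 0.10. The third read 460 and 440 with MED1 and 393 and 328 with the empty vector, a log2 fold change of 0.31 ± 0.13 (adjusted p = 0.496). All 3 probe sets of the gene were positive. The MED1 pair lay wholly above the empty vector pair at 0.31 and on the probe set of highest signal, and the groups overlapped on the remaining probe set. The larger difference, of 0.31, thus stood on 1 of 3 probe sets of the gene. CALR overlapped on all 3 of its probe sets. The first read 2264 and 1913 with MED1 and 1930 and 2180 with the empty vector (0.02 ± 0.11). The second read 1144 and 997 with MED1 and 996 and 1088 with the empty vector (0.04 ± 0.11), and the dimmest 157 and 149 with MED1 and 153 and 180 with the empty vector (-0.11 ± 0.16). On each, the arrays of 1 group enclosed or interleaved with those of the other.

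Among the disulfide isomerases, 6 of 10 probe sets had the MED1 pair wholly higher and 0 had it wholly lower, against 17.2% and 22.6% of all tested probe sets. Of the 10, 4 are of the gene PDIA6. PDIA4, the isomerase ERp72, was higher by both of its probe sets. The first read 845 and 877 with MED1 and 712 and 748 with the empty vector (0.23 ± 0.10, adjusted p = 0.511). The second read 2135 and 2181 with MED1 and 1864 and 1980 with the empty vector (0.17 ± 0.09, adjusted p = 0.608). PDIA6, the isomerase P5, had 4 probe sets, all positive, from 0.05 to 0.21, and 3 of them did not overlap between groups. Both of those at 0.21 are of the x_at type. The others, not of that type, gave 0.11 ± 0.09 without overlap and 0.05 ± 0.09 with overlap. ERO1L, now named ERO1A, the oxidase that recharges the isomerases, read 313 and 314 with MED1 and 290 and 280 with the empty vector (0.13 ± 0.12).

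PDIA3, the isomerase ERp57 that partners the lectin chaperones, overlapped (0.07 ± 0.10). P4HB, the founding isomerase of the family, was close to zero or negative by both probe sets, at -0.03 ± 0.09 and -0.09 ± 0.10. The first turned to 0.02 when arrays were centred on their medians. The group median was 0.07, and 0.06 and 0.08 on the single MED1 arrays. No isomerase probe set passed the test.

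The sensors and transcription factors did not all share a direction. Of 6 genes, 5 had a positive log2 fold change and 1 a negative one, with a group median of 0.13. The MED1 pair lay wholly above the empty vector pair on 1 of 7 probe sets and wholly below it on 2. Over all tested probe sets these shares were 17.2% and 22.6%. XBP1 read 1142 and 904 with MED1 and 1355 and 1221 with the empty vector, a log2 fold change of -0.33 ± 0.12 (adjusted p = 0.459), or 0.793 times with an interval of 0.653 to 0.963. The MED1 pair was below the empty vector pair but spread widely, and the value ranged from -0.50 to -0.17 with an array left out. ATF6 read 117 and 229 with MED1 and 163 and 33.7 with the empty vector on its brighter probe set. Empty vector replicate 2 was the low array, and the log2 fold change of 0.94 ± 0.50 (adjusted p = 0.603) became 0.01 without it. Without MED1 replicate 1 the log2 fold change was 1.38. That fit leaves 1 MED1 array, which shows no spread of its group, and no call is drawn from it. The other ATF6 probe set read 82.2 and 78.8 with MED1 and 83.0 and 92.4 with the empty vector (-0.10 ± 0.19).

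ERN1 lay near the filter, at 50.4 and 58.2 with MED1 and 51.3 and 31.4 with the empty vector (0.31 ± 0.26). CREB3 and CREB3L2 are membrane-bound factors cut by the proteases that cut ATF6. CREB3 read 238 and 234 with MED1 and 219 and 222 with the empty vector (0.09 ± 0.13), and CREB3L2 overlapped (0.17 ± 0.15). WFS1, an ER membrane protein that limits ATF6 signalling, overlapped at 0.01 ± 0.14. The wide intervals of the dim probe sets leave sizeable differences in either direction undetectable.

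HERPUD1 had the lowest p of the ER genes. It encodes a membrane protein that assembles the HRD1 degradation complex, and its transcription is known to respond to ATF6, XBP1 and ATF4. Its probe set read 2575 and 2768 with MED1 and 3976 and 3854 with the empty vector. The gap between groups was several times the gap within them, a log2 fold change of -0.55 ± 0.09, that is 0.683 times with an interval of 0.591 to 0.789. It stood 44th by p among all tested probe sets and missed the threshold (adjusted p = 0.0584). It passed with quantile normalization (adjusted p = 0.026), the stricter filter (0.0326) and robust eBayes (0.037). It missed with 64 (0.0518) or 1 (0.068) added to signals in place of 16, and with a filter on linear signals (0.0601). It also missed with median centring (0.131), with no filter (0.312) and without the variance trend (0.411). With an array left out the log2 fold change ran from -0.60 to -0.50. Those fits leave 1 array in a group, which shows no spread of that group, and no call is drawn from them.

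The rest of the degradation group gave values on both sides of zero. VCP, the ATPase that pulls proteins out of the ER membrane, read 1518 and 1475 with MED1 and 1291 and 1277 with the empty vector on one probe set (0.22 ± 0.09, adjusted p = 0.502). Its other probe set gave 0.14 ± 0.09, again without overlap. EDEM1, which hands misfolded glycoproteins to degradation, overlapped at -0.02 ± 0.11, as did DERL2 at -0.04 ± 0.10 and DERL1 at -0.09 ± 0.11 and -0.14 ± 0.11 (the derlins help proteins leave the ER for degradation). SEL1L is the scaffold of HRD1. Its probe set of highest signal read 747 and 756 with MED1 and 826 and 684 with the empty vector (0.000357 ± 0.12), so the MED1 arrays lay between the others. The next read 89.2 and 128 with MED1 and 83.4 and 88.8 with the empty vector (0.27 ± 0.21), and the dimmest tested one 51.8 and 61.3 with MED1 and 71.1 and 59.8 with the empty vector (-0.17 ± 0.22). The group median was -0.03, and 0.02 with centring.

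In the translocon, through which proteins enter the ER, 0 of 5 probe sets had the MED1 pair wholly higher or lower, against 17.2% and 22.6% of all tested probe sets. SEC61B, a subunit of the channel, read 9316 and 9347 with MED1 and 9196 and 10472 with the empty vector (-0.07 ± 0.11). SSR1, part of the complex beside the channel, had 4 probe sets, at log2 fold changes from -0.02 to 0.04. They read 7537 and 7712 with MED1 against 7599 and 7200 with the empty vector on the first, and 1640 and 1735 with MED1 against 1610 and 1819 on the second. The others read 1062 and 1066 with MED1 against 1150 and 966 with the empty vector, and 677 and 636 with MED1 against 684 and 636. The groups overlapped on all 4. The group median was -0.01, and 0.04 with centring.

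Probe sets of the same gene differed in sign for 5 of the 12 genes with several tested ones, namely HSP90B1, CALR, ATF6, SEL1L and SSR1. In the other 7 (DNAJB9, CANX, PDIA4, PDIA6, P4HB, DERL1 and VCP) every probe set pointed the same way. Genes whose windows hold an ER stress element did not share a direction either. For the first form, log2 fold changes by the probe set of highest mean were 0.34 for HSPA5, -0.10 for HSP90B1, 0.02 for CALR, 0.05 for CANX, 0.05 for PDIA6 and -0.33 for XBP1. For the second form they were 0.12 for HYOU1, 0.21 for SDF2L1 and -0.55 for HERPUD1. A match is a description of the letters and says nothing of binding in these cells.

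The PERK and ATF4 branch stood beside these values. Of 12 tested genes, 7 fell and 0 rose with MED1 (limma, Benjamini-Hochberg), against 0.327% of all genes by their probe set of highest mean, and the list median was -0.78. DDIT3, the factor CHOP, read 450 and 648 with MED1 and 1559 and 1564 with the empty vector (-1.50 ± 0.15, adjusted p = 0.00332). CHAC1, TRIB3, NUPR1, CEBPB, STC2 and the asparagine synthetase ASNS also fell, by 0.58 to 1.54 on the log2 scale. That list was drawn up with this fall already known and is not independent evidence of it, and its count was 0 when dim probe sets were kept, 0 when the variance trend was dropped, and 6 to 10 with an array left out. EIF2AK3, which encodes PERK itself, gave 0.09 ± 0.16. The difference between this list and the ER genes was not tested.

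**Figure D3:**
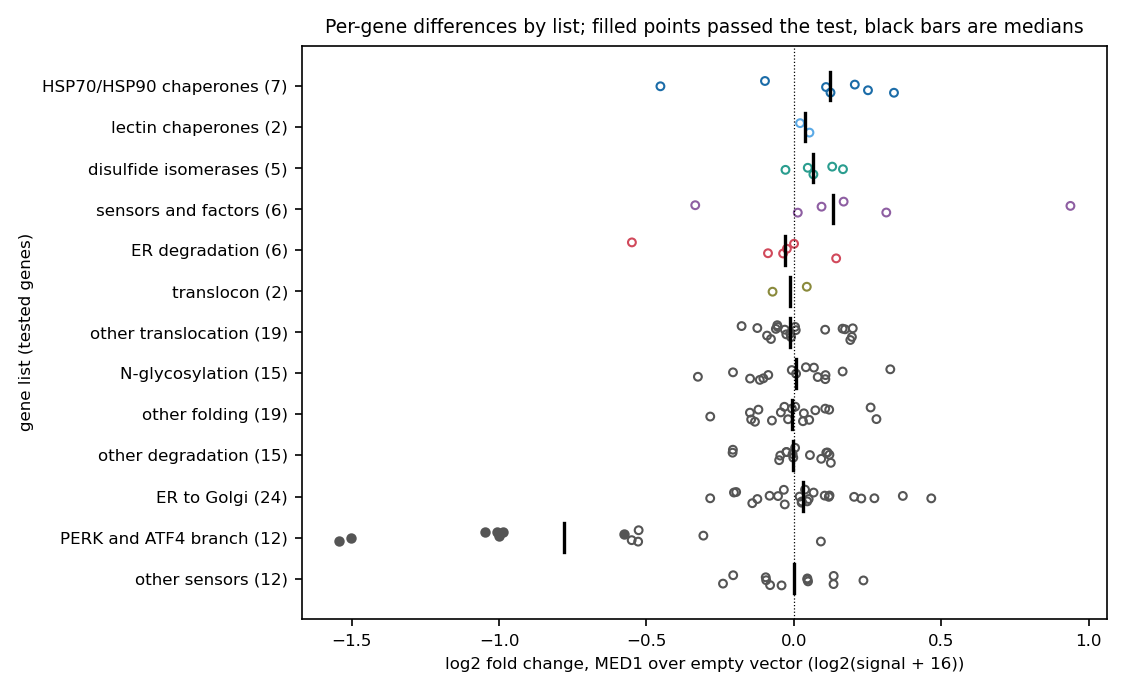
Log2 fold change of MED1 over empty vector for each tested gene (points, filled where the adjusted p was under 0.05) in the 6 ER function groups and 7 further lists, with the median of each as a black bar. The ER groups have medians from -0.03 to 0.13, and the PERK and ATF4 branch has a median of -0.78 with 7 filled points.

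Other genes of the pathway lay close to zero. Of 19 other translocation genes, 19 other folding enzymes, 15 other degradation genes and 12 other sensors and factors, 0 passed the test (limma), with median log2 fold changes of -0.0125, -0.0069, -0.00225 and 0.00166. At an unadjusted p of 0.05, 1 folding gene was higher with MED1 and 1 lower, and 0 did so in the other 3 lists, against 4.1% and 5.69% of all tested genes. The folding genes were TMX1, a membrane thioredoxin (0.26 ± 0.09, and -0.13 by a second probe set), and SDF2, a relative of SDF2L1 (-0.28 ± 0.11). The genes of lowest p in the other lists were TRAM1 and SEC62 for translocation (0.20 and 0.20), UBXN4 and OS9 for degradation (-0.21 and -0.21), and the phosphatase PTPN1 and the CCAAT-binding subunit NFYB for the factors (0.24 and -0.21). TRAM1 had another probe set at -0.02, and SEC62, UBXN4 and NFYB also had at least 1 of opposite sign.

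**Figure D4:**
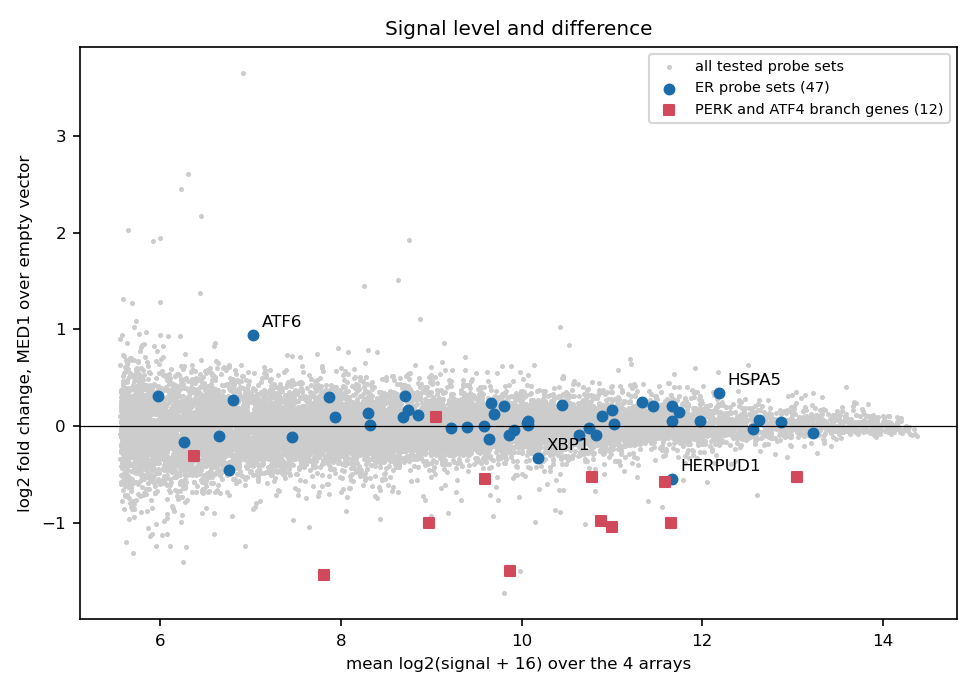
Log2 fold change of MED1 over empty vector against the mean log2(signal + 16) of the 4 arrays, with all 13329 tested probe sets in grey, the 47 ER probe sets in blue and the 12 PERK and ATF4 branch genes in red. The ER probe sets span the range of signals and sit near zero, with HERPUD1 at -0.55, XBP1 at -0.33, HSPA5 at 0.34 and a dim ATF6 probe set at 0.94 labelled.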

How the data were processed

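The authors deposited MAS5 signals, linear intensities, 1 per probe set and array. MAS5 is named in the submitters' processing notes without a version. All arrays shared a trimmed mean of 500.2 (2% off either end), and were not scaled again. RNA input was 200 ng per sample, per the labels. The genome build is not given in the sources used here. There were no detection calls, so low signals have no known background.

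The 62 control probe sets were dropped. Probe sets were named by the platform annotation, updated through Entrez identifiers to RefSeq (GRCh38.p14), and 19064 probe sets named 1 gene. Signals were transformed to log2(value + 16), which understates the change of dim genes. Probe sets whose mean of these values lay under the 40th percentile (8886) were not tested, and 13329 were. The two-sided test was that of limma 3.58.1 (R 4.3.3; moderated variances that follow the mean signal), with Benjamini-Hochberg adjustment over all tested probe sets and a threshold of 0.05. The fit has 2 residual degrees of freedom and 7.3 from the prior. For a single value, exact permutation of 2 and 2 arrays gives a p of 0.333 at the smallest. The number of arrays limits the precision.

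The genes, lists and named genes (all ER genes, with values in full for the 8 probe sets of lowest p, the one of highest signal and genes whose probe sets disagree in sign; passing genes, otherwise 2 of lowest p, of the other lists, each gene by its probe set of highest mean) were chosen with earlier results of these data known. Protein sequences were not used here. The procedure was tested on simulated data. Alternatives covered the pseudocount, scaling, filter, variance model, replicate block, arrays left out and averaged probe sets. Promoter windows were RefSeq's. Plots were drawn with matplotlib 3.10.9.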

Additional observations from a re-analysis of the deposited data

How the results depend on the processing

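No ER probe set passed as tested, where 39 of all probe sets did. The number called over all probe sets was 0 with no filter and 5 without the variance trend. Leaving out 1 array gave 25 to 216. ER probe sets called numbered 1 with quantile normalization, 1 with the filter at the 60th percentile, 1 with robust eBayes (HERPUD1 each time) and 0 to 1 with an array left out. A filter on the mean of linear signals, chosen after seeing the data, called 41 probe sets, 0 of them ER genes. With the replicate number as a block, 239 probe sets passed, 2 of them ER genes (HSPA5, adjusted p = 0.0223, and HERPUD1, adjusted p = 0.00131). The numbers form only 2 pairs (deviation correlation 0.121), and nothing in the labels ties them to a shared culture or day, so the pairing was not used.

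The median over ER genes was 0.102 with median centring, 0.0798 with probe sets averaged and 0.0244 to 0.0838 with an array left out. With centring the median over all tested probe sets was 0.0363, and the centred medians below carry the same shift. The chaperone median was 0.176 with centring, 0.165 with the 60th percentile filter, 0.205 averaged and 0.0904 to 0.204 with an array left out. The isomerase median was 0.118 with centring, 0.13 averaged and 0.0581 to 0.123 with an array left out. The degradation median ran from -0.123 to 0.052 with an array left out, and the translocon median was 0.0375 with centring.

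Of 651 values of single ER probe sets over 14 alternatives, 612 kept their sign and side of the threshold, 7 newly passed and 32 changed sign, on 17 probe sets. Centring added the same amount to every log2 fold change. With it P4HB turned to 0.0232, EDEM1 to 0.0281, DERL2 to 0.0153 and SSR1 to 0.0317 and 0.0442. The cause of the other sign changes was not tested. Quantile normalization turned SSR1 to 0.00276, and a pseudocount of 64 turned SEL1L to -1.78e-06. With an array left out, values that changed sign ran from -0.237 to 0.0405 and from -0.0206 to 0.238 (HSP90B1, DNAJB9), -0.961 to 0.0556 (DNAJC3), -0.0997 to 0.141 and -0.0617 to 0.133 (CALR), -0.00543 to 0.137 (PDIA3), -0.0694 to 0.0119 and -0.196 to 0.0137 (P4HB), -0.13 to 0.156 (WFS1), -0.133 to 0.133 (SEL1L), -0.112 to 0.0641 (EDEM1), -0.177 to 0.00112 (DERL1), -0.113 to 0.0398 (DERL2), -0.166 to 0.0211 (SEC61B), and -0.107 to 0.0667, -0.111 to 0.138 and -0.059 to 0.0434 (SSR1). The MED1 call was lost with no filter (adjusted p = 0.381), without the trend (0.358) and without either empty vector array (0.0607 and 0.0869).

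With 2 arrays a group, differences under about the reach of the intervals to either side were not detectable. Those intervals are not adjusted for the number tested, and some larger differences also missed the threshold. HSPA5, at 0.34 with a log2 interval of 0.13 to 0.54, had an adjusted p of 0.277 (limma). HERPUD1, at -0.55 with an interval of -0.76 to -0.34, had one of 0.0584. Dim probe sets are the least certain.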

Other observations

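Genes of N-glycosylation and of transport out of the ER were also read. Of 15 tested genes that build or trim N-glycans, 0 passed the test (limma), 0 were higher with MED1 and 1 lower at an unadjusted p of 0.05 (4.1% and 5.69% of all tested genes were), and the median log2 fold change was 0.00719. The lower one was GANAB, the glucosidase II subunit that releases glycoproteins to the lectin chaperones. It read 1279 and 1242 with MED1 and 1506 and 1666 with the empty vector (-0.33 ± 0.10, adjusted p = 0.333), and a second probe set gave -0.28 ± 0.14. MOGS, glucosidase I, which acts just before it, read 127 and 146 with MED1 and 115 and 96.1 with the empty vector (0.33 ± 0.18, adjusted p = 0.611). The arrays of the groups did not overlap for MOGS or on the first GANAB probe set, and they overlapped on the second.

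Of 24 tested genes of ER to Golgi transport, 0 passed, and 3 were higher with MED1 and 1 lower at an unadjusted p of 0.05, beside the same 4.1% and 5.69% of all tested genes, with a median of 0.03. MCFD2, a partner of the cargo receptor LMAN1, read 1238 and 1004 with MED1 and 893 and 722 with the empty vector (0.47 ± 0.14, adjusted p = 0.325), but its second probe set gave -0.000925 ± 0.10. SAR1B, a GTPase that starts the transport coat, read 2702 and 2302 with MED1 and 2082 and 1784 with the empty vector (0.37 ± 0.12, adjusted p = 0.37).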
